A study of Mus musculus with 8 samples.

Results

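The metallothionein genes Mt1, Mt2, Mt3 and Mt4, the metal-responsive transcription factor Mtf1 and the zinc exporter Slc30a1 were described in mouse embryonic fibroblasts that lack Cebpg and in wild-type (WT) fibroblasts. They are 6 of the 18193 genes measured, and all 12 of the 34945 gene probe sets that name 1 of them alone were included. The genes were chosen by function and with earlier results of the same Cebpg-/- against WT contrast known, so their differences are given as descriptions without a test. Cebpg encodes a bZIP transcription factor of the C/EBP family. Total RNA of 4 Cebpg-/- and 4 WT samples, all C57BL/6, was hybridised to 1 Affymetrix array each. Embryos of E13.5 gave the fibroblasts, which were passaged in serum-containing DMEM and collected at passage 3, 48 hours after plating. The samples of a genotype are labelled biological replicates, and the labels do not say whether each came from a separate embryo. Nothing in the labels describes the Cebpg allele beyond the genotype name.

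Metallothioneins are small cysteine-rich proteins that bind zinc, copper and cadmium. Zinc, cadmium, glucocorticoids, oxidants and low oxygen are known to raise Mt1 and Mt2 transcription in most mouse tissues, while Mt3 is known mainly from brain and Mt4 from stratified epithelia. MTF-1 is a zinc-finger factor that senses free zinc and binds metal response elements in the promoters of Mt1, Mt2 and Slc30a1. Slc30a1 encodes ZnT1, which carries zinc out of the cell across the plasma membrane.

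The promoters of Mt1, Mt2 and Slc30a1 are shown because the 3 genes were higher in Cebpg-/- and each has a metal response element core before its start. That of Mt3, which lies beside Mt2 on chromosome 8 and has no such core before its start, is shown for comparison. Such a core also lies before the start of Mt4, which is not shown and differed by 0.03. Each sequence holds the 250 bases before the annotated start on the coding strand, which is the plus strand in each case. The sequences are from RefSeq (GRCm38.p6), and all 6 genes were found in that promoter table. Capitals mark the core of a metal response element, TGCACNC or TGCGCNC, on either strand. The Mt1 window is chr8:94178839-94179088, the Mt2 window chr8:94172368-94172617, the Mt3 window chr8:94152357-94152606 and the Slc30a1 window chr1:191906531-191906780.
Mt1: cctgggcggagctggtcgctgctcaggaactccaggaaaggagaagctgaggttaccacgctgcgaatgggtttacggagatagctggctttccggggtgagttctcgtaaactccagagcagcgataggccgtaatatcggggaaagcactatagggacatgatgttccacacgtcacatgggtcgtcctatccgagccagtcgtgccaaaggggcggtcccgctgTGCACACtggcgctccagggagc
Mt2: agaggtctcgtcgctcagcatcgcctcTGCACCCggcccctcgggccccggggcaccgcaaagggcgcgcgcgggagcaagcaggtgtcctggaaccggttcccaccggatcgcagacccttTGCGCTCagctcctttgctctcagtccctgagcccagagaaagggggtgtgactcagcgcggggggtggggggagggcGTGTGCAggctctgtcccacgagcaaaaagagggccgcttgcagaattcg
Slc30a1: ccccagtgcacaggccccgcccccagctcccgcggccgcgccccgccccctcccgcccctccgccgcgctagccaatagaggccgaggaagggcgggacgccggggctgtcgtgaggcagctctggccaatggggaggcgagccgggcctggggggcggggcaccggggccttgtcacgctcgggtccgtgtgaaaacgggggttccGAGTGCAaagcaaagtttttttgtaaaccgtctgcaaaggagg
Mt3: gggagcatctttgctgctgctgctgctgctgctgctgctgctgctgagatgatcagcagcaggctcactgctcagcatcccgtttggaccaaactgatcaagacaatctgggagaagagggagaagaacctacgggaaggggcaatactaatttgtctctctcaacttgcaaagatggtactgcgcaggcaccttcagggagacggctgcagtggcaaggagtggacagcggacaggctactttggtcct

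Motifs were searched on both strands in these 250 bases and the 50 bases after the start. Metal response element cores numbered 3 for Mt1, 4 for Mt2, 2 for Slc30a1, 1 for Mt3, 1 for Mt4 and 0 for Mtf1. Of 27025 promoters of the same length, 25.6% held at least 1 such core, 7.11% at least 2, 2.0% at least 3 and 0.503% at least 4. Before the start, Mt1 had 1 core, at bases -23 to -17, and Mt2 had 3, at -223 to -217, -128 to -122 and -50 to -44. The Slc30a1 core before the start lay at -43 to -37, and the only Mt3 core lay after the start, at 28 to 34. The only Mt4 core lay before the start, at -91 to -85. An antioxidant response element core, TGACNNNGC, was found once in Mt2, at -79 to -71, once in Slc30a1, at -82 to -74, and in 12.5% of all promoters. The hypoxia response element core, ACGTG or GCGTG, occurred 2 times in Mt1, 2 times in Mt2 and 1 time in Slc30a1, and at least 1 time in 43.8% of all promoters. The Mt2 hypoxia core at -52 to -48 shares bases with the metal core at -50 to -44, and the Slc30a1 hypoxia core at -75 to -71 shares bases with the antioxidant core. None of the 6 windows held TGATGNAA, a core of the composite element that C/EBP and ATF factors bind, which 4.06% of all promoters held. These are letter matches in a short window and not measured binding sites. Each window was set by 1 annotated start per gene, and whether that start is the one used in these cells was not tested. Cores outside the window were not counted.

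Mt1 and Mt2, the metallothioneins that most cells make, were both higher in Cebpg-/- fibroblasts. All values are log2 values on the scale of robust multi-array average (RMA) summaries, 1 per probe set and array, so a difference of 1 is a doubling. The main Mt1 probe set, 1422557_s_at, read 9.72, 9.01, 9.39 and 9.52 on Cebpg-/- replicates 1 to 4, against 7.72, 7.67, 7.62 and 7.61 on WT replicates 1 to 4. The means were 9.41 ± 0.30 in Cebpg-/- and 7.65 ± 0.05 in WT (SD, n = 4 each), a difference of 1.76 or 3.38-fold. The groups did not overlap, and the lowest Cebpg-/- value lay 1.29 above the highest WT value. The 4 Cebpg-/- arrays spanned 0.714 and the 4 WT arrays 0.111.

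Mt2 probe set 1428942_at read 9.60, 8.74, 9.34 and 9.34 on Cebpg-/- replicates 1 to 4, against 6.92, 6.77, 6.84 and 6.53 on WT replicates 1 to 4. Its means were 9.25 ± 0.37 in Cebpg-/- and 6.77 ± 0.17 in WT (SD, n = 4 each), a difference of 2.49 or 5.61-fold. The lowest Cebpg-/- array stood 1.82 above the highest WT array. For both genes Cebpg-/- replicate 1 was the highest array and Cebpg-/- replicate 2 the lowest of its genotype, and among WT arrays replicate 1 was highest and replicate 4 lowest.

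A second Mt1 probe set, 1451612_at, was much dimmer. It read 3.30, 2.80, 3.18 and 2.93 on Cebpg-/- replicates 1 to 4, against 2.22, 2.15, 2.15 and 2.23 on WT replicates 1 to 4. The difference was 0.87 or 1.82-fold, again with no overlap, and the WT values lay under the array medians of 2.70 to 2.76. With 16 added to the unlogged values, which damps changes of dim probe sets, it was 0.24. The suffix of the brighter Mt1 probe set marks probes that match more than 1 transcript, and whether Mt2 RNA adds to its signal was not tested.

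**Figure D1:**
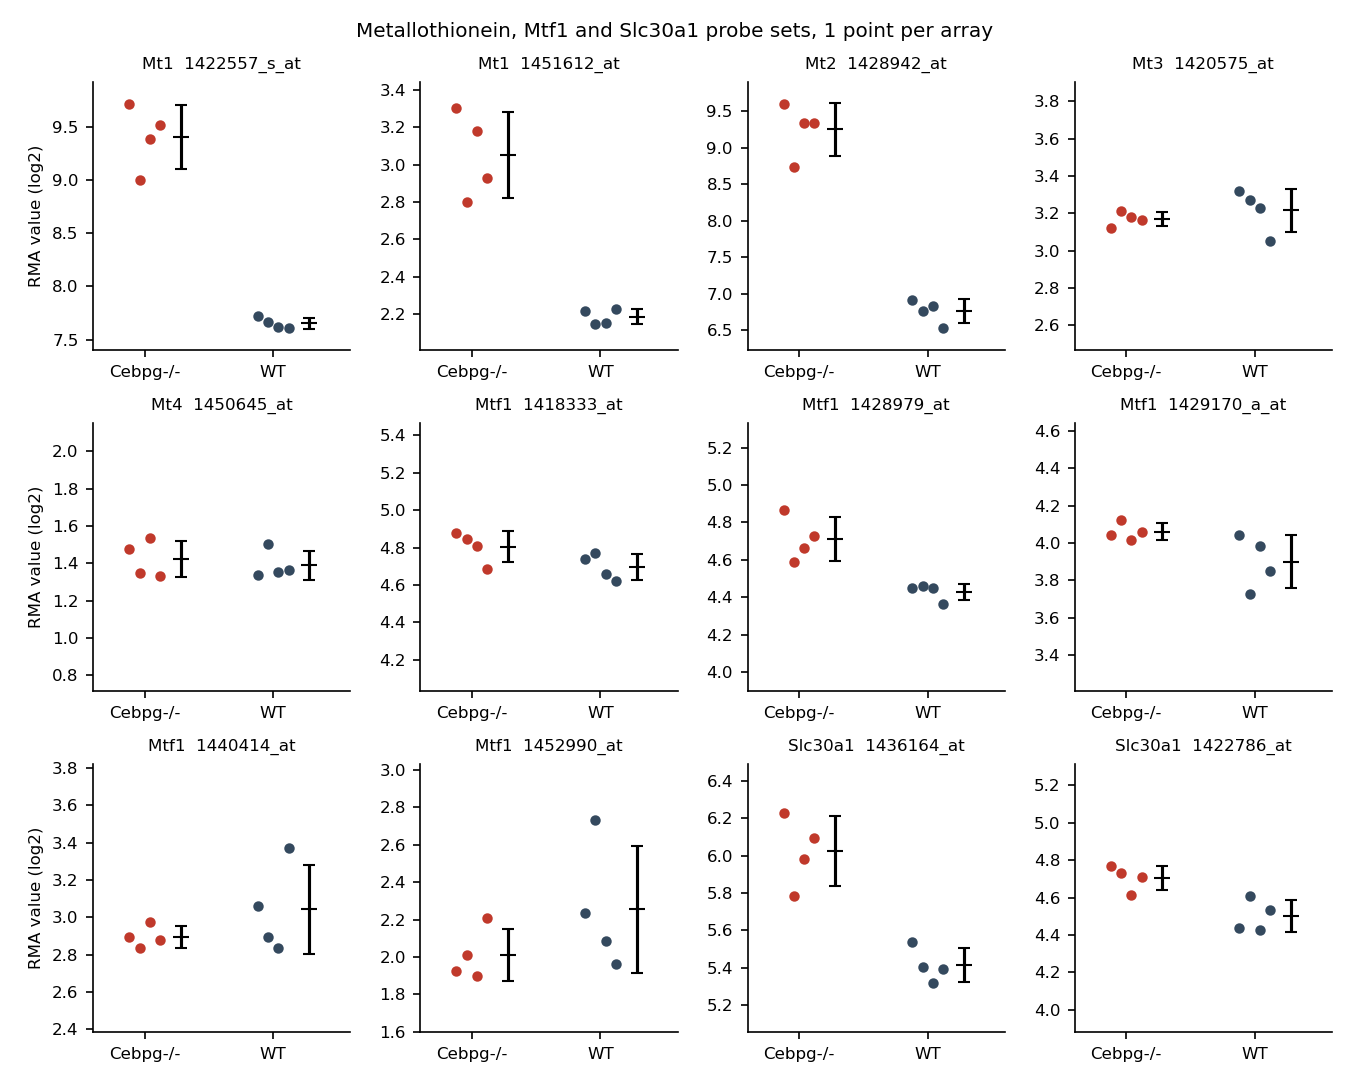
RMA log2 values of the 12 probe sets of Mt1, Mt2, Mt3, Mt4, Mtf1 and Slc30a1, with 1 point per array, Cebpg-/- (red) left of WT (blue), and bars for the mean and SD of 4 arrays. Each panel has its own log2 range, and the groups do not overlap for Mt1, Mt2, Slc30a1 and 1 of 5 Mtf1 probe sets.

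The tissue-restricted metallothioneins showed no such difference. Mt3 (1420575_at), the brain metallothionein, read 3.12 to 3.21 in Cebpg-/- and 3.05 to 3.32 in WT, with means of 3.17 ± 0.04 and 3.22 ± 0.12 (SD, n = 4 each) and a difference of -0.05. Mt4 (1450645_at), the metallothionein of stratified epithelium, read 1.33 to 1.54 in Cebpg-/- and 1.34 to 1.51 in WT, with a difference of 0.03. For both genes the groups overlapped. The Mt4 values were under every array's median, and no background call per probe set was made, so a change in Mt3 or Mt4 too small to lift these signals was not detectable here.

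Mtf1, which encodes the factor that drives the metal response of Mt1, Mt2 and Slc30a1, had 5 probe sets, 3 with a positive and 2 with a negative difference. The brightest, 1418333_at, read 4.88, 4.85, 4.81 and 4.69 on Cebpg-/- replicates 1 to 4, against 4.74, 4.77, 4.66 and 4.62 on WT replicates 1 to 4. Its difference was 0.11, the groups overlapped, and it was 0.03 after quantile normalisation. Probe set 1428979_at read 4.87, 4.59, 4.66 and 4.73 on Cebpg-/- replicates 1 to 4, against 4.45, 4.46, 4.45 and 4.36 on WT replicates 1 to 4. That was a difference of 0.28 or 1.22-fold, and the lowest Cebpg-/- array stood 0.13 above the highest WT array. The other Mtf1 probe sets overlapped between genotypes, with differences of 0.16 for 1429170_a_at, -0.15 for 1440414_at and -0.24 for 1452990_at. Each negative difference was small without 1 WT array, at -0.04 for 1440414_at without WT replicate 4 and -0.08 for 1452990_at without WT replicate 2, and the means of 1452990_at, 2.01 in Cebpg-/- and 2.25 in WT, were under the array medians.

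Slc30a1, the zinc exporter under MTF-1 control, was higher in Cebpg-/- on both of its probe sets. Probe set 1436164_at read 6.23, 5.79, 5.98 and 6.10 on Cebpg-/- replicates 1 to 4, against 5.54, 5.41, 5.32 and 5.40 on WT replicates 1 to 4. The means were 6.02 ± 0.19 in Cebpg-/- and 5.41 ± 0.09 in WT (SD, n = 4 each), a difference of 0.61 or 1.53-fold, with 0.25 between the nearest arrays of the genotypes. Its Cebpg-/- arrays stood in the same order as for Mt1, with replicate 1 highest, then 4, 3 and 2, and WT replicate 1 was again the highest WT array. The dimmer probe set, 1422786_at, read 4.77, 4.73, 4.61 and 4.71 on Cebpg-/- replicates 1 to 4, against 4.44, 4.61, 4.43 and 4.53 on WT replicates 1 to 4. Its difference was 0.20 or 1.15-fold, and only 0.0048 separated the nearest arrays. That difference was 0.1234 after quantile normalisation and 0.1226 with 16 added to the unlogged values.

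Among all 18193 genes, each taken by its brightest probe set, Mt2 had the 9th largest rise and Mt1 the 37th, so that 0.0440% and 0.198% of genes rose by more. Slc30a1 was 466th, with 2.56% of genes above it. Mtf1 was 4842nd, Mt4 7497th and Mt3 11457th. For 3 of the 6 genes (Mt1, Mt2 and Slc30a1) all Cebpg-/- values lay above all WT values, as for 12.8% of all genes. By probe set it was 6 of 12, against 10.3% of gene probe sets. The same 3 genes were among the 8.62% of genes called higher at a limma adjusted p under 0.05, and none was among the 3.99% called lower. Since this contrast was used to choose the 6 genes, these counts describe them and test nothing. Their median difference was 0.36, against -9e-04 over all genes.

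**Figure D2:**
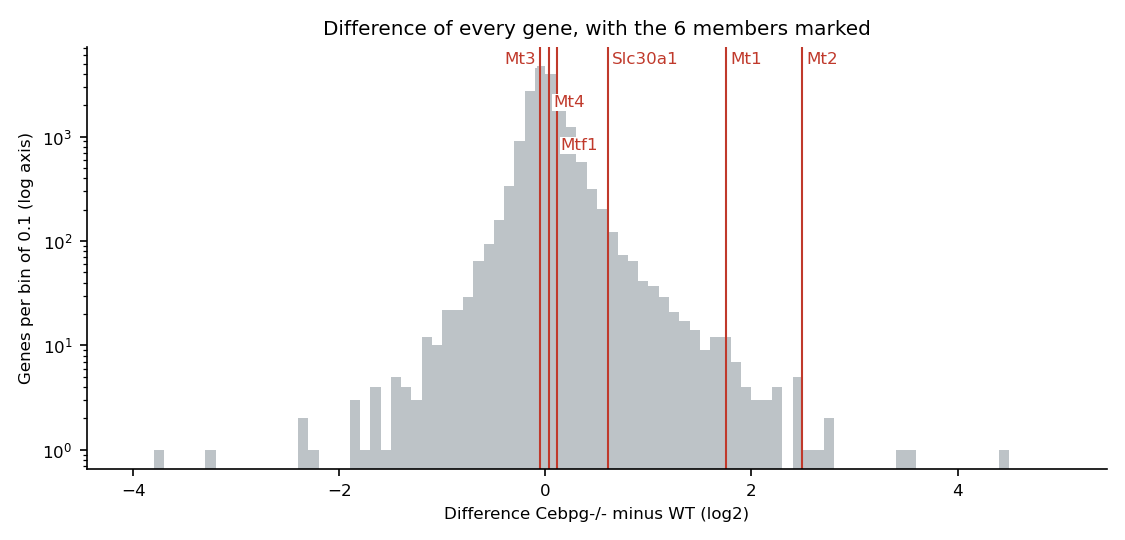
Number of genes (log axis) in each bin of the difference Cebpg-/- minus WT (log2) over 18193 genes, with vertical lines at the brightest probe sets of the 6 genes. Mt2 (2.49) and Mt1 (1.76) stand in the right tail, Slc30a1 (0.61) on the right shoulder, and Mtf1 (0.11), Mt4 (0.03) and Mt3 (-0.05) in the central mass.

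Marker genes of other cells were read on the same arrays. All 10 fibroblast markers lay above the array median, with a mean of 9.40 to 9.81 in Cebpg-/- and 9.85 to 10.04 in WT, and 4 of the 10 fell (limma, adjusted p under 0.05; 1 with the leukocyte covariate described next). The mean of 18 leukocyte markers was 7.73, 4.99, 7.004 and 6.61 on Cebpg-/- replicates 1 to 4, against 3.66, 5.51, 5.44 and 5.63 on WT replicates 1 to 4. All 18 had a higher mean in Cebpg-/-, with a median difference of 1.58, all 18 overlapped between genotypes, 1 (Cd14) passed limma at an adjusted p under 0.05, and 1 of 18 lay under the array median. That count was 18 without Cebpg-/- replicate 2, 0 without Cebpg-/- replicate 1, 3 or 4 or WT replicate 1 or 3, and 1 without WT replicate 2 or 4. It was also 0 with the replicate block and with an intensity trend. Endothelial markers (0 of 5 called, 1 at an unadjusted p under 0.05) and erythroid markers (0 of 4, 2 at an unadjusted p under 0.05) averaged under the array medians, and 1 of 5 epithelial and 1 of 5 neural markers fell. In bulk RNA, more cells of a type and more RNA per cell cannot be told apart. The targeted gene was read by 3 probe sets, with differences of -0.78 (1451639_at, no overlap), -0.17 (1425262_at, overlapping) and 0.26 (1425261_at, no overlap). The brightest was 1425262_at, with means of 6.60 in Cebpg-/- and 6.78 in WT, and the dimmest was 1425261_at, with 3.05 and 2.80. The labels do not place any of them inside or outside the deletion.

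Beside the leukocyte markers, Mt1, Mt2 and Slc30a1 ran as follows. Cebpg-/- replicate 1 had the highest and Cebpg-/- replicate 2 the lowest value of its genotype for the 3 genes and for the leukocyte mean. Cebpg-/- replicate 2 had a leukocyte mean below those of WT replicates 2, 3 and 4. On that array Mt1 read 9.01, Mt2 8.74 and Slc30a1 5.79, above all WT arrays. WT replicate 1, with the lowest leukocyte mean of the 8 arrays, had the highest WT value of all 3 genes. With the leukocyte mean as a covariate the differences were 1.56 for Mt1, 2.27 for Mt2 and 0.52 for Slc30a1. Without Cebpg-/- replicate 1 and WT replicate 1, an alternative added after seeing the data, they were 1.67, 2.42 and 0.58 in that order. The readings of Cebpg-/- replicate 2 and WT replicate 1 are of 1 array each. Whether leukocyte content contributes to the differences of the 3 genes was not tested.

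**Figure D3:**
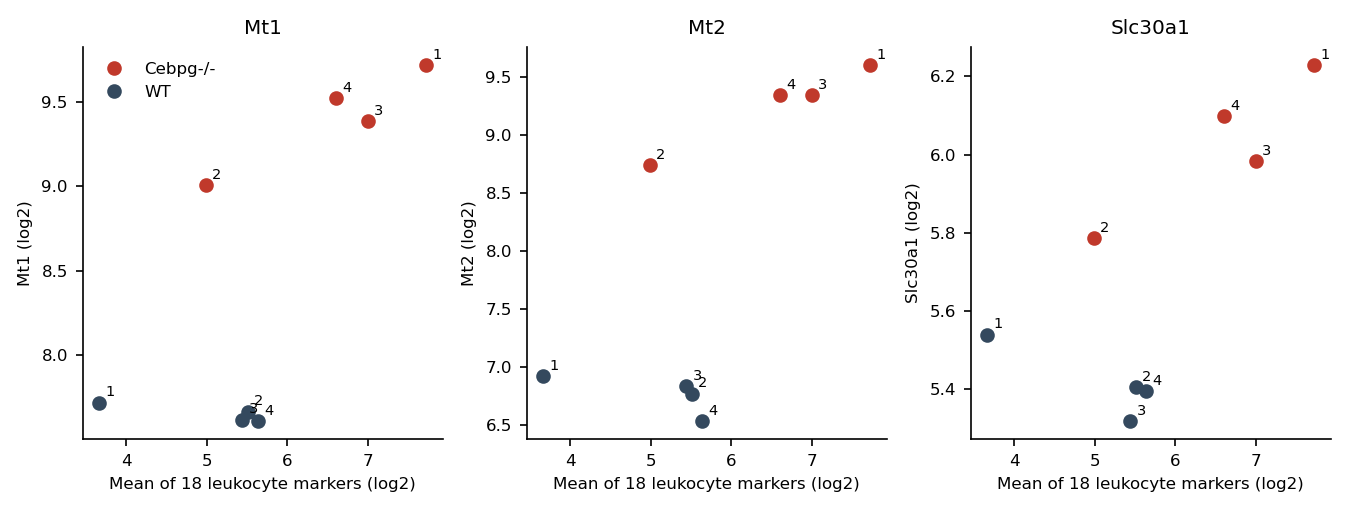
Log2 value of Mt1, Mt2 and Slc30a1 (brightest probe sets) against the mean log2 value of 18 leukocyte markers on each array, with Cebpg-/- in red, WT in dark blue and replicate numbers beside the points. Cebpg-/- replicate 2 lies at a leukocyte mean of 4.99, within the WT range of 3.66 to 5.63, and above every WT array for each of the 3 genes.

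The other zinc transporters were called about as often as genes in general. They comprise SLC30 exporters, which carry zinc out of the cytosol, and SLC39 importers, which carry it in. Of 23 measured besides Slc30a1, 2 rose, 1 fell and 20 did not pass (limma, adjusted p under 0.05), and the median difference was 0.01, against -9e-04 over all genes. Over all 18193 genes 1569 rose and 726 fell. At an unadjusted p under 0.05 there were 8 of the 23, against 5161 of all genes. Importers gave 2 rises among 14 and a median of 0.00, and exporters 1 fall among 9 and a median of 0.05. The direction of the calls depended on scaling and probe set choice: 1 rose and 3 fell after quantile normalisation, 3 rose and 0 fell with array medians subtracted, and 0 rose and 2 fell with the mean of each gene's probe sets. Among importers alone the same settings gave 1 rise and 2 falls, 3 rises and 0 falls, and 0 rises and 1 fall.

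The importer Slc39a8 (ZIP8, which also carries cadmium and manganese) read 4.48 ± 0.20 in Cebpg-/- and 3.97 ± 0.21 in WT (SD, n = 4 each). It rose by 0.51 (SE 0.12), or 1.43-fold, with a limma adjusted p of 0.02433. That call was lost without Cebpg-/- replicate 1 (0.06926), Cebpg-/- replicate 4 (0.05715) or WT replicate 1 (0.06774) and after quantile normalisation (0.05073). A second, dim probe set differed by 0.06, and with the mean of both the difference was 0.28 and the call was lost (adjusted p = 0.05512). Slc39a6 (ZIP6) read 9.66 ± 0.11 in Cebpg-/- and 9.31 ± 0.05 in WT, a rise of 0.35 (SE 0.07) with a limma adjusted p of 0.01045. Its other 3 probe sets differed by -0.01, 0.06 and -0.07, and with the mean of its probe sets the call was lost (0.08, adjusted p = 0.5042). The exporter Slc30a5 (ZnT5, of the secretory pathway) read 7.24 ± 0.08 in Cebpg-/- and 7.44 ± 0.03 in WT. It fell by 0.21 (SE 0.06) with a limma adjusted p of 0.04791, which became 0.06308 to 0.1292 without any 1 array other than Cebpg-/- replicate 2, and 0.08012 with array medians subtracted. Slc30a7 (ZnT7) differed by -0.00 on its brightest probe set and by -0.27 on the other. With the leukocyte covariate, or without the arrays with the highest and lowest leukocyte means, 0 of the 23 were called, while the differences were 0.34 and 0.34 for Slc39a6, 0.49 and 0.43 for Slc39a8 and -0.13 and -0.18 for Slc30a5 in these settings.

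**Figure D4:**
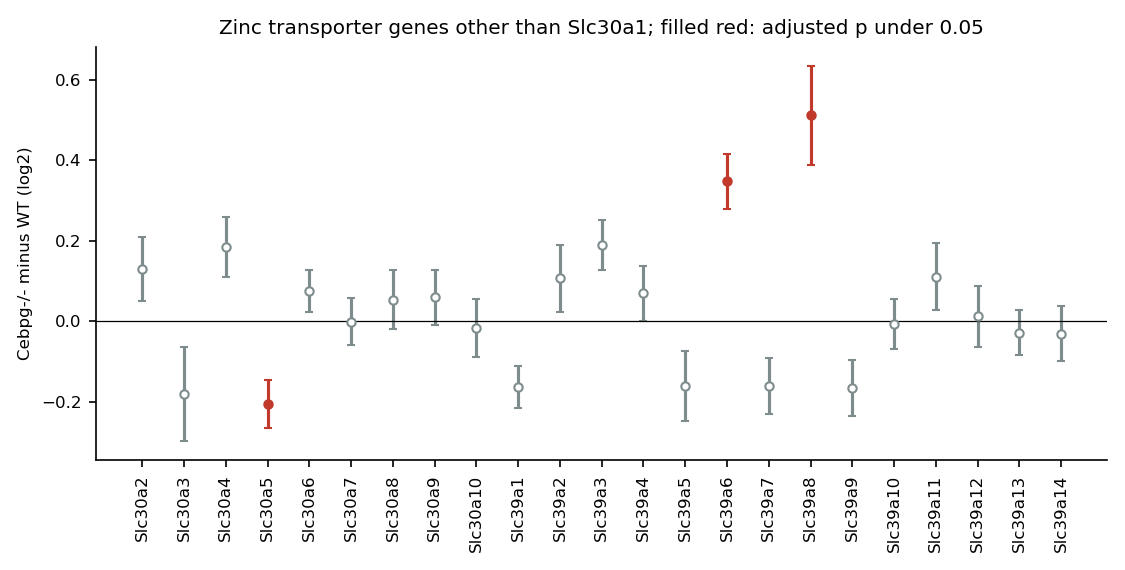
Difference Cebpg-/- minus WT (log2) of the 23 zinc transporter genes other than Slc30a1, with bars of 1 SE from limma and filled red points for an adjusted p under 0.05. The called genes are Slc39a8 (0.51), Slc39a6 (0.35) and Slc30a5 (-0.21), and the other 20 are open points.

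Copper handling genes were read because metallothioneins also bind copper. Of 15, 3 rose, 0 fell and 12 did not pass, with a median of 0.04. Over all genes 8.62% rose and 3.99% fell, which are the shares to set beside this list and those below. Ccs, the copper chaperone of superoxide dismutase 1, rose by 0.36 (limma, adjusted p = 0.007133), and Sco2, a copper chaperone of cytochrome c oxidase, by 0.35 (0.006776). Sco1, its partner, rose by 0.23 (limma, adjusted p = 0.04861), a call lost without any 1 array other than Cebpg-/- replicate 2 and WT replicate 4 (0.06666 to 0.1329) and after quantile normalisation (0.1343). The copper importer Slc31a1 differed by -0.10 and the exporter Atp7a by -0.02, and neither passed. With the leukocyte covariate 0 of the 15 were called, while the differences were 0.33 for Sco2, 0.32 for Ccs and 0.12 for Sco1.

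Of 6 other genes linked to MTF-1 in mice, 3 rose and 1 fell, with a median of 0.22. Gclc, the catalytic subunit of glutamate-cysteine ligase in glutathione synthesis, rose by 0.47 (limma, adjusted p = 0.004145). Ndrg1, a stress- and hypoxia-responsive gene, rose by 0.76 or 1.70-fold (0.004716). Pgf, placental growth factor, rose by 0.45 (limma, adjusted p = 0.03077), which became 0.06402 to 0.08036 without Cebpg-/- replicate 1 or 4 or WT replicate 1, 2 or 3, and 0.05901 after quantile normalisation. Csrp1, a LIM-domain protein of the actin cytoskeleton, fell by 0.47 (limma, adjusted p = 0.03062), which became 0.05514 to 0.08724 without any 1 array other than Cebpg-/- replicate 2 and WT replicate 2. The zinc importer Slc39a10, which MTF-1 is known to repress, differed by -0.01 and the selenoprotein gene Selenow by -0.23, and neither passed. With the leukocyte covariate 0 of these genes were called, while the differences were 0.41 for Gclc, 0.66 for Ndrg1, 0.39 for Pgf and -0.31 for Csrp1.

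Genes that heavy metals and oxidants raise were mostly higher: of 10, 8 rose, 0 fell and 2 did not pass, with a median of 0.86. This list held genes already known to rise in these samples, so its direction is not independent evidence. Hmox1, heme oxygenase 1, read 10.08 ± 0.43 in Cebpg-/- and 7.35 ± 0.08 in WT (SD, n = 4 each), a 6.63-fold rise (limma, adjusted p = 4.683e-05). Hspa1a, an inducible HSP70 chaperone, read 7.47 ± 0.30 in Cebpg-/- and 5.40 ± 0.27 in WT, a 4.20-fold rise (limma, adjusted p = 0.0001361). Gclm, the modifier subunit of the same ligase, rose by 1.13 (limma, adjusted p = 0.000132), and Srxn1, sulfiredoxin, by 0.95 (0.0007689). Among heat shock genes, Hsph1 (-0.01) and Hspb1 (0.17) did not pass. With the leukocyte covariate 6 of the 10 were called. Hspa1a and Hspa1b are near-identical copies, and their probe sets may share signal.

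Glucocorticoids also raise Mt1 and Mt2 in mice, and genes of that response moved both ways. Of 10, 3 rose, 2 fell and 5 did not pass, with a median of 0.02. Klf9, a Krüppel-like factor, fell by 0.65 (limma, adjusted p = 0.003427), and Fkbp5, a chaperone of the glucocorticoid receptor, by 0.43 (0.004167). Errfi1, an inhibitor of EGF receptor signalling, rose by 0.78 (limma, adjusted p = 0.005859), and the kinase gene Sgk1 by 0.48 (0.007688). The third that rose was the receptor gene Nr3c1, by 0.36 (limma, adjusted p = 0.02866). Its call was lost after quantile normalisation, with the mean of its probe sets and with the replicate block. The same held without Cebpg-/- replicate 1 or 3 or WT replicate 1 or 3, and in each of these settings 2 genes of the list rose. Tsc22d3, encoding the glucocorticoid-induced leucine zipper, differed by -0.10 and did not pass. With the leukocyte covariate 0 of the 10 were called, while the differences were 0.79 for Errfi1, 0.43 for Sgk1, -0.37 for Fkbp5 and -0.49 for Klf9, whose limma adjusted p was 0.05014.

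The genes with profiles nearest to Mt1 and Mt2 over the 8 arrays were ranked by the root-mean-square difference between profiles centred on their own means, in log2 units, where 0 is an identical profile. Since the profile includes the genotype difference, the ranking is a description. Nearest to Mt1 was Procr, the endothelial protein C receptor, at 0.07, which read 8.01 ± 0.34 in Cebpg-/- and 6.33 ± 0.09 in WT (SD, n = 4 each). Then came Parvb, a focal adhesion protein, at 0.18, Blvrb, a biliverdin reductase, at 0.21, Bnip3, a mitophagy receptor, at 0.22, and Egln3, an oxygen-sensing prolyl hydroxylase, at 0.25. Nearest to Mt2 was Hmox1 at 0.19, followed by Ankrd37 at 0.24, Egln3 at 0.28, the AMP deaminase gene Ampd3 at 0.30 and Hspa1a at 0.31. Egln3 was the only gene in both sets of 5. Mt1 and Mt2 lay 0.38 from each other on the same measure, farther than from each of their 5 nearest genes. The measure counts the size of the genotype difference, which was 2.49 for Mt2 and 1.76 for Mt1. It therefore does not show how alike Mt1 and Mt2 ran among arrays of the same genotype.

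**Figure D5:**
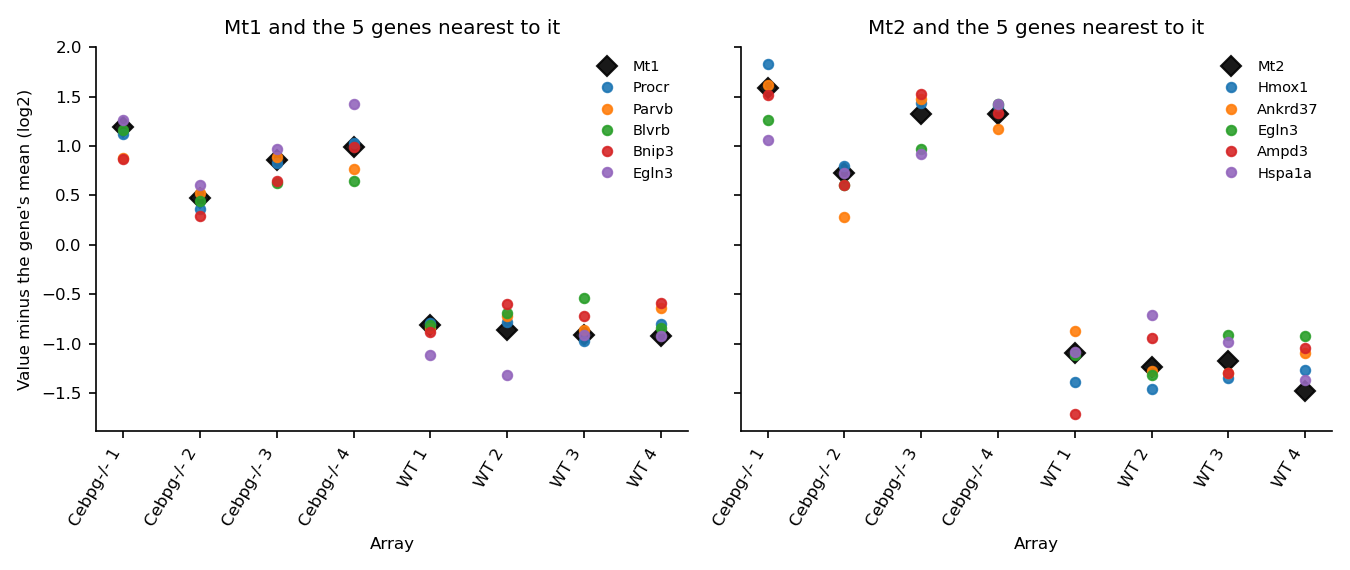
Log2 values minus each gene's mean over the 8 arrays, for Mt1 (left, diamonds) and Mt2 (right, diamonds) and the 5 genes nearest to each (circles), with Cebpg-/- arrays left of WT arrays. In both panels each gene's value on Cebpg-/- replicate 2 is its lowest among the Cebpg-/- arrays, and Procr is within 0.07 (root mean square) of Mt1.

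The neighbours of the metallothionein cluster on chromosome 8 were read as genes chosen by position alone, when values of some were already known. On the Mt4 side, Bbs2 (a ciliary transport gene) differed by 0.13, Ogfod1 (a ribosomal oxygenase) by 0.08 and Nudt21 (a cleavage factor of pre-mRNA) by -0.01, and none passed. On the Mt1 side, Nup93, a nuclear pore gene next to Mt1, read 7.48 ± 0.08 in Cebpg-/- and 7.51 ± 0.06 in WT (SD, n = 4 each) and did not pass (limma, adjusted p = 0.7474). Farther on, the sodium-chloride cotransporter gene Slc12a3 differed by -0.11 and did not pass. Herpud1, an endoplasmic reticulum stress gene, fell by 0.40 (limma, adjusted p = 0.0263), and Nlrc5, a regulator of MHC class I genes, rose by 0.34 (limma, adjusted p = 0.0352). Nlrc5 was dim, with means of 2.18 in Cebpg-/- and 1.84 in WT, and its values were under every array's median. Within the cluster the difference was 0.03 for Mt4, -0.05 for Mt3, 2.49 for Mt2 and 1.76 for Mt1, in their order along the chromosome.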

How the data were processed

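RNA of 8 fibroblast samples was measured on Affymetrix arrays with biotin-labelled cRNA made with an oligo(dT) primer, per the labels' protocols. The deposited values are log2 summaries by RMA, per the submitters' processing notes. The version of RMA is not given in the sources used here. Such summaries compress the changes of dim probe sets. Values ran from 0.5345 to 13.0474. Scanner files were not used here, so no background calls were made, and the number of arrays limits precision.

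Of 45101 probe sets, 64 controls were left out. The platform annotation names 1 gene for 34945, several for 932 and none for 9160, and RefSeq's gene table (GRCm38.p6) gave current symbols for 34741 by Entrez number. The brightest probe set stood for each of 18193 genes. limma 3.58.1 in R 4.3.3 (lmFit, eBayes, genotype as the only term) was fitted across all probe sets other than controls and checked on simulated data. The p-values were adjusted by Benjamini-Hochberg over all genes with a threshold of 0.05. The p-values rest on the spread between these cultures, which may be technical. Replicate numbers were not taken to pair samples: the correlation of deviations between same-numbered arrays was -0.27, 0.13, -0.01 and 0.03.

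The 6 genes and the gene lists were chosen with earlier results of these data known. Genes named were all probe sets of the 6, up to 4 called genes with the lowest p from each list, the 5 with profiles nearest to Mt1 and to Mt2, and Cebpg. List genes outside this rule (Slc31a1, Atp7a, Slc39a10, Selenow, Hsph1, Hspb1, Nr3c1, Tsc22d3 and Slc30a7), Cd14 and the cluster neighbours were named after their values were seen. Alternatives covered scaling, leaving out each array, a replicate block, a leukocyte covariate, averaging a gene's probe sets, a filter on dim probe sets, an intensity trend, another threshold and 16 added before log2.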

Additional observations from a re-analysis of the deposited data

Results flagged for a closer look

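In 4 of the 76 groups of 4 arrays examined, 1 array stood apart from the other 3 of its genotype, and chance gives this in about 5% of groups. All 4 were WT arrays. Mt4 read 1.51 on WT replicate 2, where the nearest WT value was 1.36. The Mtf1 probe set 1428979_at read 4.36 on WT replicate 4, where the nearest was 4.45, and without that array its difference between Cebpg-/- and WT was 0.26 in place of 0.28. Sco1 read 4.30 on WT replicate 1, where the nearest was 4.45, and without that array its call was lost (0.18, limma adjusted p = 0.1273). Procr, the gene with the profile nearest to Mt1, read 6.20 on WT replicate 3, where the nearest was 6.37.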

How the results depend on the processing

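Mt1, Mt2 and Slc30a1 kept the sign of their differences in every alternative run, and the count of genes with no overlap between Cebpg-/- and WT stayed at 3 except without Cebpg-/- replicate 4 (4 higher, with Mtf1) or WT replicate 4 (3 higher and 1, Mt3, lower). The difference of the brightest Mtf1 probe set, 0.1083, was 0.0315 after quantile normalisation. The count of 3 zinc transporters called became 1 to 3 when 1 array was left out, and the fits with 1 call were those without Cebpg-/- replicate 1, Cebpg-/- replicate 4 or WT replicate 1. It was 1 with a replicate block, 0 with the leukocyte covariate, 5 at a threshold of 0.1 and 0 without the arrays of highest and lowest leukocyte mean, a setting chosen after seeing the data. Of the other lists' 20 calls (17 higher, 3 lower), 6 were made with that covariate and 12 without those arrays. Over all genes 2295 calls became 1469 with the replicate block, 371 with the covariate, 529 without those arrays and 3616 at a threshold of 0.1. Without Cebpg-/- replicate 1 or 3 or WT replicate 1 or 3 there were 1205, 1334, 1202 and 1472. The cause was not tested, although fits with fewer arrays or more terms have fewer degrees of freedom. Of all calls, 68.4% were higher in Cebpg-/- as deposited, 56.7% after quantile normalisation and 78.9% after subtracting array medians. Same-numbered samples share only a number, so calls lost under the block are not read as weaker effects. Dim probe sets limit Mt3, Mt4 and the second Mt1 probe set.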
